A study of Drosophila melanogaster with 4 samples.

Results

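The regions described here are the H4K16ac clusters of 3L, the left arm of chromosome 3 of Drosophila melanogaster, as called by the authors from chromatin of adult heads. All enriched regions that the deposited combined list places on 3L were taken, without any selection on their values. They number 966 of the 5728 clusters in that list. The list of replicate 1 held 668 clusters on the arm, of 4051 in all, and the list of replicate 2 held 765, of 4431. The arm is 24.5 Mb long in the file headers (FlyBase release 5), and its coordinates run from the telomere to the centromere.

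H4K16ac is histone H4 acetylated at lysine 16. In flies the acetyltransferase MOF writes it, and the modification is known to loosen the packing of nucleosomes. MOF works in the MSL complex along the male X, where the mark accompanies dosage compensation, and in the NSL complex at promoters of active genes on all chromosomes. Clusters on an autosome arm such as 3L therefore fall outside the domains that dosage compensation is known for.

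The study profiled nuclei from heads of the wild-type Oregon-R-modENCODE strain by ChIP-seq, with 2 ChIP libraries and 2 input libraries. The input of the same number is labelled as the control of each ChIP. All flies were mixed adults, and their sex and age are not given. A head holds neurons, glia, eye, fat and muscle, so a cluster can come from all of these cells or from some of them. No label states that the replicates were separate collections, and their spread may be technical. Files of the ChIP libraries only were analysed here, so no groups of samples were compared and no p-values are given. Read numbers are not in the lists, so the depth is unknown. The scale of the authors' score per cluster is not stated either. Scores are ranked within a list only. Where scores of several lists, or their means, stand side by side, a difference between lists may be one of scale.

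H4K16ac lay over a small part of 3L, in many narrow clusters. They covered 6.24% of the arm in replicate 1 and 7.58% in replicate 2, a mean of 6.91% ± 0.944 (SD, n = 2), and 9.62% in the combined list. The arm held 27.2 clusters per Mb in replicate 1, 31.2 in replicate 2 (mean 29.2 ± 2.79, n = 2) and 39.4 in the combined list. Replicate 2 was thus the fuller list by either measure, and the combined list was fuller than both. The first combined cluster began at 121772, and the last ended at 24532162, 11395 bp before the end of the sequence.

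The clusters were spread unevenly along the arm. Over the 24 full bins of 1 Mb, the number of combined clusters ran from 9 to 67 with a median of 39.5. It ran from 7 to 49 in replicate 1 and from 7 to 51 in replicate 2. The fullest bin in the combined list was the one at the telomere, from 0 to 1 Mb, with 45 clusters in replicate 1, 50 in replicate 2 and 67 combined. Next came the bin from 9 to 10 Mb, with 42, 51 and 61 clusters, and the one from 8 to 9 Mb, with 49, 47 and 58. Both replicates placed at least 42 clusters in each of these 3 bins, so the high bins were high in every list.

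The emptiest full bin was that from 23 to 24 Mb, near the centromere, with 7 clusters in each replicate and 9 combined. The bin from 14 to 15 Mb held 13 in each replicate and 17 combined. Bins from 6 to 7, 13 to 14 and 18 to 19 Mb followed with 23 combined clusters each. Low bins therefore lay in the interior of the arm as well as at its centromere end. The covered share of the full bins, as a mean of both replicates, was 12.2% ± 0.791 (SD, n = 2) from 1 to 2 Mb and 12.1% ± 1.74 from 0 to 1 Mb, which did not differ beyond their spread, and 1.63% ± 0.019 from 23 to 24 Mb, the lowest.

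**Figure D1:**
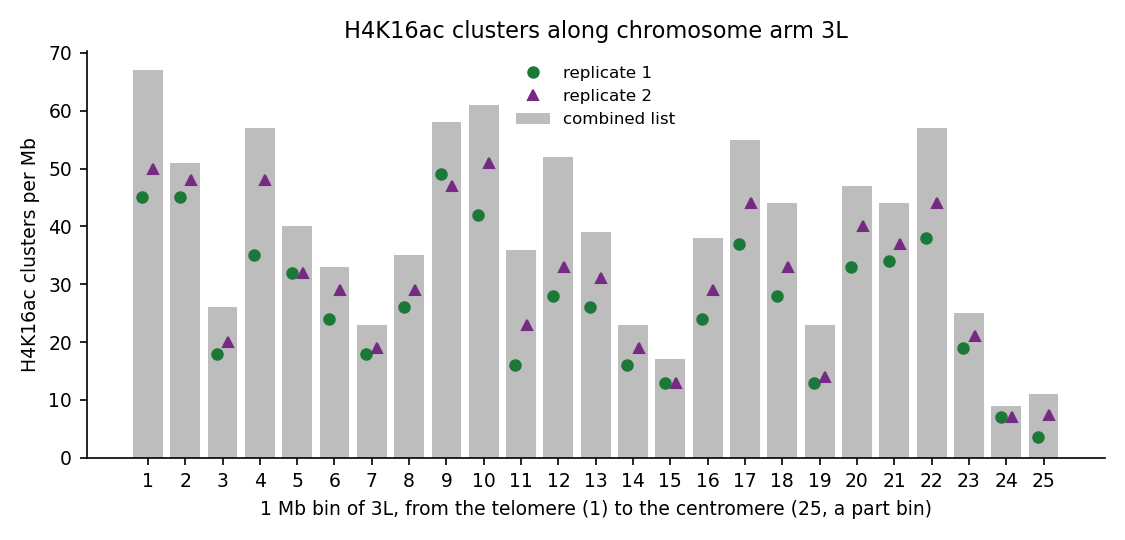
H4K16ac clusters per Mb in each 1 Mb bin of 3L, numbered from the telomere, with bars for the combined list and points for each replicate list. Bin 1 holds 67 combined clusters, bins 9 and 10 form another peak with 58 and 61, and bin 24 holds 9. Bin 25 is a part bin at the centromere end, scaled to 1 Mb.

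Density was higher toward the telomere than toward the centromere, and this difference was smaller when either end of the arm was left out. The first 2 Mb held 45.0 clusters per Mb in replicate 1 and 49.0 in replicate 2, and the last 2 Mb held 11.0 and 13.0. The 20.5 Mb between them held 27.1 and 31.2. The 2 end values of each replicate thus lay above and below that of the interior, with no overlap between the replicates. Cut at its midpoint, the arm held 31.5 and 35.7 clusters per Mb on the telomere side and 22.9 and 26.6 on the centromere side. The ratio of the sides was 1.36 ± 0.0267 (SD, n = 2). It was 1.23 ± 0.0231 without the last 2 Mb and, in a variant added once the data had been seen, 1.25 ± 0.0145 without the first 2 Mb.

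Across the 24 full bins, Spearman's rho between the number of clusters and the distance from the telomere was -0.30 for replicate 1, -0.31 for replicate 2 and -0.27 for the combined list. Pearson's r was -0.35, -0.33 and -0.31. Without the last 2 full bins rho was -0.17, -0.16 and -0.089. Without the first 2 as well it was 0.086, 0.087 and 0.12 over the remaining 20 bins. These are descriptions over bins of 1 library each, and neighbouring bins share their library. In the interior of the arm there was thus no steady fall of the number of clusters with distance. Neighbouring bins were weakly alike. Over the full bins, rho between a bin and the next was 0.17 for replicate 1, 0.14 for replicate 2 and 0.19 for the combined list. The ratio of the sides with both ends of the arm left out was not computed.

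Clusters of the first 2 Mb also scored higher than those of the interior. The median score of the first 2 Mb was 0.640 for replicate 1 and 0.643 for replicate 2, and the interior stood at 0.505 and 0.535. In the last 2 Mb, with only 22 and 26 clusters, it was 0.558 and 0.633. In the combined list it was 0.466 in the first 2 Mb, 0.380 in the interior and 0.480 in the last 2 Mb. Across the 24 full bins, Spearman's rho between median score and distance from the telomere was -0.056 (replicate 1), 0.27 (replicate 2) and -0.043 (combined). The highest median score of any full bin was found from 1 to 2 Mb in each list, at 0.71, 0.71 and 0.59. Median widths were 2273 and 2290 bp in the first 2 Mb and 1964 and 2034 bp in the interior. The few clusters at the centromere end were therefore not weak ones: in both replicates their median score lay above that of the interior, where clusters were more frequent. Over the whole arm the 2 sides hardly differed, with median scores of 0.53 and 0.52 in replicate 1 and 0.55 and 0.54 in replicate 2.

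Spacing ranged over several orders of magnitude. The median gap to the next cluster was 9264 bp (replicate 1), 7823 bp (replicate 2; mean 8543.5 ± 1019, SD, n = 2) and 5975 bp (combined). The mean gaps were far longer, at 34287, 29499 and 22850 bp. In the combined list 15.9% of the 965 gaps were under 1 kb and another 30.7% were from 1 to 5 kb. Together these short gaps made up 0.282% and 3.48% of the length between clusters. The 57 gaps of 100 kb or more (42 under 200 kb and 15 longer) held 25.7% and 21.5% of it. A cluster on 3L thus usually had a neighbour within a few kb, while a small number of long gaps held a large part of the length between clusters. Consecutive gaps were hardly correlated: Spearman's rho between a gap and the next was 0.024 in each replicate and 0.067 in the combined list, as a description of gaps that share a cluster and a library.

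**Figure D2:**
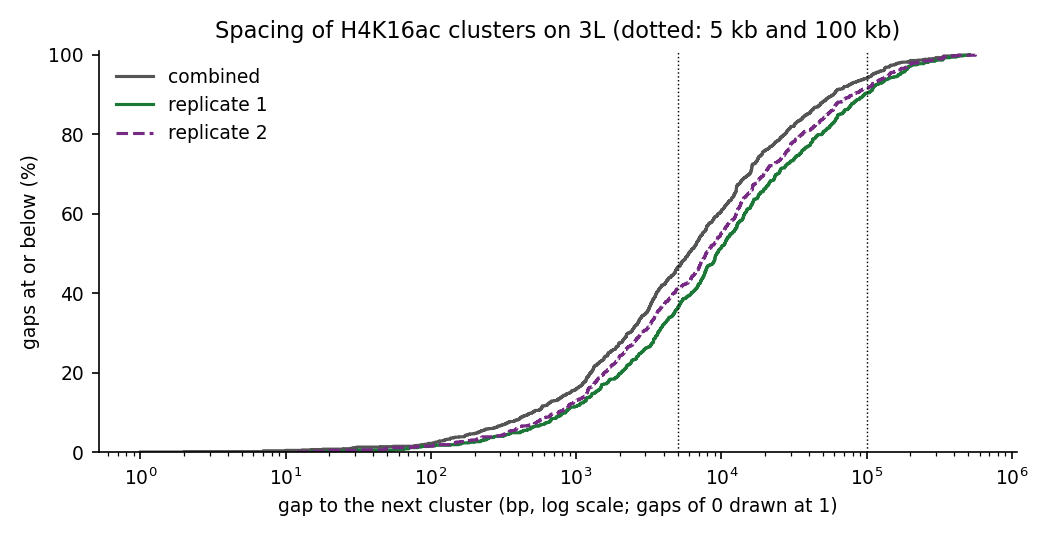
Cumulative share of the gaps between neighbouring clusters on 3L against gap length in bp on a log scale, for the 3 lists. Dotted lines mark the 5 kb that joins clusters into a group and the 100 kb that makes an empty territory. Medians are 5975 bp (combined), 7823 bp (replicate 2) and 9264 bp (replicate 1).

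Clusters no more than 5 kb apart were joined into chains. In the combined list 295 of the 966 clusters (30.5%) stood alone, 210 were in pairs, 305 in chains of 3 or 4 and 156 (16.1%) in 27 tight groups of 5 or more. The replicates had fewer of these groups, 7 with 36 clusters in replicate 1 and 10 with 57 in replicate 2. The share of clusters in tight groups was 5.39% and 7.45% (mean 6.42% ± 1.46, SD, n = 2). Only 3 of the groups of each replicate overlapped a group of the other. When just the combined clusters found in both replicates were kept, another variant added later, the share was 1.67%. Most tight groups of one replicate were thus not tight groups in the other, while 4 of the 7 groups of replicate 1 and 8 of the 10 of replicate 2 overlapped a combined one.

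The 27 combined groups spanned 12.6 to 59.9 kb and took up 2.64% of the arm, and clusters covered 49.5% to 74.0% of each span. Of these groups, 20 lay on the telomere side of the midpoint and 7 on the centromere side, and 6 lay in the first 2 Mb. The telomere side held 57.2% of all combined clusters, and the first 2 Mb held 12.2%. The 156 members of the 27 groups were 60.9% found in both replicates, against 62.1% for all combined clusters on the arm. Grouped and solitary clusters had similar scores. Median scores in the combined list were 0.38 for clusters alone, 0.38 for pairs, 0.43 for chains of 3 or 4 and 0.41 for groups of 5 or more. In replicate 1 the groups had the lowest median of these classes, 0.48 against 0.51 for clusters alone, and in replicate 2 the clusters alone had the lowest, 0.53 against 0.55.

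The most populous group ran from 9411398 to 9471250, in the bin from 9 to 10 Mb, with 13 combined clusters in 59.9 kb. Replicate 1 placed 9 clusters there and replicate 2 placed 11. Of the 13, 9 were found in both replicates, 1 in a single replicate and 3 in neither. Its strongest member, from 9447952 to 9452321, scored 0.91 and 1.08 in the replicates and 0.98 combined. The window from 9400001 to 9500000, around the group, held 11, 14 and 16 clusters, the most of the 245 full windows of 100 kb in replicate 2 and the combined list. In replicate 1 the window from 3100001 to 3200000 held more, 12. The exact pieces of the group differed between the lists.

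**Figure D3:**
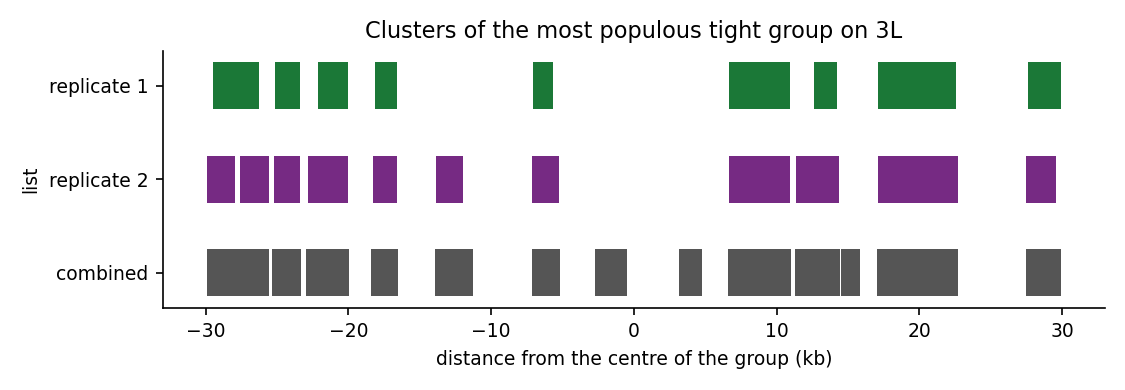
Clusters of replicate 1, replicate 2 and the combined list in the tight group with the most members on 3L, drawn to scale as bars against the distance in kb from the centre of the group. The lists hold 9, 11 and 13 clusters, and most bars lie at the same positions in all 3 rows.

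The next 4 groups by number of clusters were smaller. That from 3805777 to 3832012 had 8 combined clusters and 5 in each replicate. The group from 7312530 to 7355386 had 7, with 5 and 6 in the replicates, and the highest median score of the 5, 0.61. It includes clusters of 7029 bp (from 7326921) and 7114 bp (from 7348273), wide for this arm. The group from 679222 to 712554 also had 7, with 5 and 7, and at 74.0% was the most covered of all 27. The group from 8956381 to 8980957 had 7 as well, with 6 and 5.

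On a larger scale the arm alternated between islands of clusters and empty territories. A stretch of at least 100 kb without any cluster was called an empty territory. There were 65 in each replicate and 58 in the combined list. They took up 51.6% of the arm in replicate 1, 50.2% in replicate 2 (mean 50.9% ± 1.01, SD, n = 2) and 42.9% in the combined list. Territories were about as numerous on both sides of the midpoint, with 30 and 28 in the combined list. Those on the centromere side were longer: they filled 48.6% of it, against 37.2% of the telomere side. The same order held in replicate 1 (56.9% and 46.2%) and in replicate 2 (57.3% and 43.0%).

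The longest stretch free of clusters in all 3 lists ran from 18104172 to 18614040, over 509.9 kb. Replicate 1 left 510.0 kb free there, replicate 2 left 561.0 kb and the combined list 509.9 kb. The next ran from 22282963 to 22709040 over 426.1 kb, and its length in the 3 lists differed by less than 0.3 kb. The 3 that followed ran from 13507731 to 13895208 (387.5 kb), from 13039010 to 13379655 (340.6 kb) and from 15157342 to 15493702 (336.4 kb). All 5 lay on the centromere side, and 3 of them lay between 13 and 16 Mb, where the bins from 13 to 15 Mb were among the emptiest. Of the 58 stretches of 100 kb or more free of clusters in all lists, 39 had lengths in the 2 replicates that differed by no more than 2 kb. The median difference was 0.38 kb, and the largest was 305.7 kb, so some territories were broken up by a cluster of 1 replicate.

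Between these territories the combined clusters formed 58 islands with a median span of 137.8 kb and a median of 11.5 clusters. Only 6 islands were a single cluster. The 10 islands with the most clusters held 489 of the 966 (50.6%) on 30.5% of the arm. By definition all clusters lay in islands, and empty territories took up 42.9% of the arm in the combined list. These shares therefore do not show that the 10 were denser than the other islands. The most populous island ran from 121772, the first cluster of the arm, to 887722. It held 45 clusters in replicate 1, 50 in replicate 2 and 67 combined, and was covered to 23.4%. The islands from 19534804 to 20535159 and from 7633587 to 8760783 followed with 64 and 62 combined clusters. They were longer, at 1.00 and 1.13 Mb, and less dense, at 64.0 and 55.0 clusters per Mb against 87.5 in the island at the telomere.

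Clusters at the edge of an empty territory resembled those inside the islands. In the combined list 109 clusters bordered a territory, with a median width of 2008 bp and a median score of 0.39, against 2089 bp and 0.39 for the other 857. In replicate 1 the medians were 1922 and 2011 bp, and in replicate 2 they were 2008 and 2080.5 bp. A few edges were wide all the same. The widest cluster of the arm closed a gap of 299.5 kb, and that from 22063270 to 22070660 stood between gaps of 115.5 and 142.8 kb.

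The clusters themselves were narrow and of similar size. The median width was 1999 bp in replicate 1, 2052 bp in replicate 2 (mean 2025.5 ± 37.5, SD, n = 2) and 2080.5 bp in the combined list. The narrowest measured 1302 bp in each replicate and 1001 bp in the combined list, and the widest 7594, 8488 and 8784 bp. On 2L, 2R and 3R the narrowest were 1301 to 1307 bp in the replicates and 1001 bp in the combined list. These minima were thus not particular to 3L, and whether they are set by the calling was not tested. Clusters of 5 kb or more were rare, with 17, 24 and 40 in the 3 lists. No 3L cluster reached 10 kb in any list.

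The 10 widest combined clusters found in both replicates measured 7.31 to 8.78 kb and scored 0.46 to 0.95. The widest ran from 5126823 to 5135606 with a combined score of 0.94. In replicate 2 it was 1 cluster of 8488 bp that scored 1.01, and in replicate 1 it was 2 pieces, the longer of 4711 bp and scoring 1.18. The next, from 18858630 to 18867141, was 1 cluster in each replicate, of 6163 bp (score 0.90) and 8435 bp (score 0.93). Of these 10, 7 were split into pieces in at least 1 replicate, and 3 were whole in both. By contrast, of all 600 combined clusters found in both replicates, 558 matched 1 cluster in each.

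The 10 combined clusters that scored highest, among those found in both replicates, were other regions than the 10 widest: the 2 lists shared 0. They measured 2.24 to 5.07 kb and scored 1.16 to 1.44, and all 10 were a single cluster in each replicate. The highest, from 1773678 to 1778751, scored 1.23 in replicate 1, 1.63 in replicate 2 and 1.44 combined. The next, from 6180903 to 6185079, scored 1.38, 1.49 and 1.40. The region from 1616694 to 1619767 scored 1.38, 1.39 and 1.37. Of the 10, 9 lay on the telomere side of the midpoint, and the exception ran from 21560504 to 21563610. Of the 10 widest, 4 lay on the telomere side, which held 57.2% of all combined clusters.

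Wider clusters scored higher over the whole range, but not at the narrow end. Spearman's rho between width and score was 0.71 for replicate 1, 0.74 for replicate 2 and 0.66 for the combined list, as a description over clusters of 1 library. Among clusters under 1.8 kb it was -0.11, -0.27 and -0.56. Among clusters of 2 kb or more it was 0.25, 0.36 and 0.30. The median combined score was 0.35 from 1000 to 1200 bp, dropped to 0.22 from 1600 to 1800 bp, and was 0.47 from 2000 to 2200 bp. In replicate 1 it stepped from 0.42 (1800 to 2000 bp) to 0.61 (2000 to 2200 bp), and in replicate 2 from 0.43 to 0.61. Every list therefore showed a step in score near a width of 2 kb. Neither the caller nor its thresholds are stated, and whether the step is set by the calling was not tested.

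**Figure D4:**
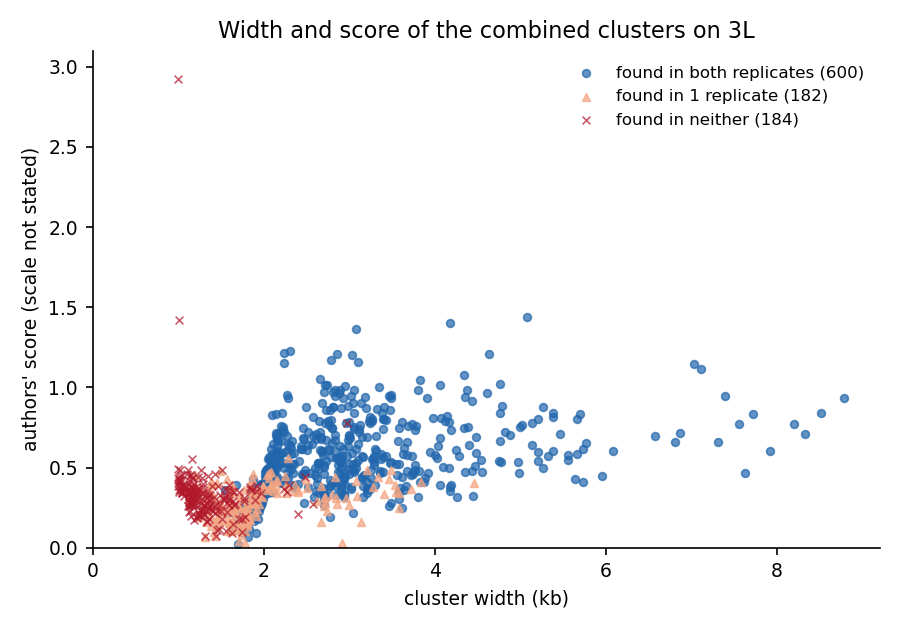
Authors' score (scale not stated) against width in kb for the 966 combined clusters on 3L, marked by whether they were found in both replicates (600), in 1 replicate (182) or in neither (184). Clusters found in neither crowd below 2 kb, scores are lower toward 1.8 kb than at the narrow end, and a single one of 1001 bp stands at 2.92, above all others.

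The highest-scoring cluster of the combined list on 3L had no match among the called clusters of either replicate. It measured 1001 bp, ran from 18765587 to 18766587 and scored 2.92. The same score was given to 3 other combined clusters, 1 each on 3R, chromosome 4 and the unplaced sequence U. All 4 were 1001 bp wide and found in neither replicate. On 3L, 24 combined clusters scored above 1, of which 22 were found in both replicates and 2 in neither. The other of these 2, from 3068912 to 3069923, was 1012 bp wide and scored 1.42. Both were named here after their values were seen.

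The replicates placed most 3L clusters in the same positions. Of the 668 clusters of replicate 1, 626 (93.7%) overlapped replicate 2 by at least 1 bp, and of the 765 of replicate 2, 614 (80.3%) overlapped replicate 1. When each had to cover 50% of the other, 88.2% and 77.0% remained. The length covered in both, 1.41 Mb, was 92.3% of that covered in replicate 1 and 76.0% of that in replicate 2, and 0.714 of the length covered in either (the Jaccard index). Most of what replicate 1 marked was thus marked in replicate 2, and replicate 2 added more of its own.

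Along the arm the replicates kept the same profile. Across the 24 full bins their numbers of clusters had a Pearson's r of 0.97 and a Spearman's rho of 0.97, described over bins that share a library in each replicate. Replicate 2 had more clusters in 20 bins, as many in 3 and fewer in 1, the bin from 8 to 9 Mb with 49 in replicate 1 and 47 in replicate 2. The Jaccard index of the full bins ran from 0.514 (10 to 11 Mb) to 0.889 (23 to 24 Mb), with a median of 0.721. The bin from 10 to 11 Mb also had the smallest percentage of combined clusters with a match in both replicates, 36.1%, and the bin from 1 to 2 Mb the largest, 86.3%. The Jaccard index from 1 to 2 Mb was 0.84, so a sparse full bin near the centromere and a dense one near the telomere both stood high. The lowest value of the full bins was in the interior. The part bin at the centromere end, with 2 and 4 replicate clusters, stood lower still, at 0.485 and 33.3% found in both.

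Where clusters matched one to one, their edges lay close together. There were 574 such pairs, which took in 85.9% of the clusters in replicate 1 and 75.03% in replicate 2. Their starts differed by a median of 75 bp and their ends by 78 bp, and in 347 pairs (60.5%) both edges were within 200 bp. Replicate 2 had the wider cluster in 437 pairs (76.1%) and replicate 1 in 137, with a median difference of 112 bp. Scores in the 2 lists had a Pearson's r of 0.85 and a Spearman's rho of 0.81 across the pairs, and widths 0.88 and 0.81. Of the 20 highest scores in each replicate, 12 belonged to the same pairs.

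**Figure D5:**
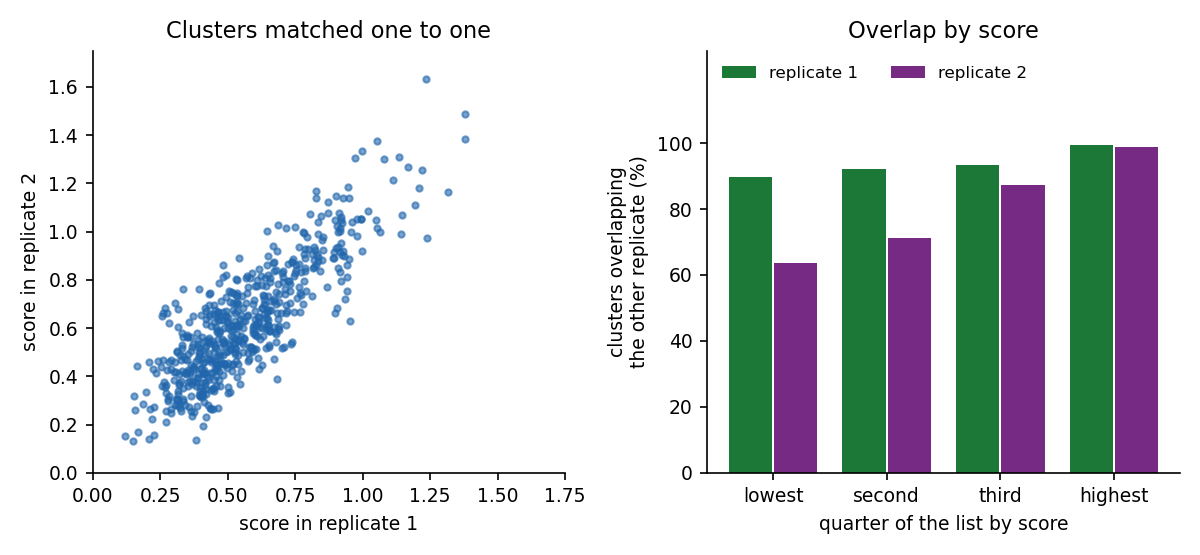
Left, score in replicate 2 against score in replicate 1 for the 574 clusters on 3L matched one to one. Right, percent of the clusters of each replicate that overlap the other, in 4 parts of equal size from lowest to highest score, which rises from 89.8% to 99.4% in replicate 1 and from 63.5% to 99.0% in replicate 2.

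Overlap depended on the score. In the 25% of clusters with the lowest score, 89.8% (replicate 1) and 63.5% (replicate 2) overlapped the other replicate. In the 25% with the highest score the shares were 99.4% and 99.0%. The clusters of 1 replicate alone numbered 42 in replicate 1 and 151 in replicate 2, with median widths of 1490 and 1673 bp, against 2028.5 and 2170 bp for shared ones. Their median scores were 0.46 and 0.44, against 0.53 and 0.60. None of them scored above 0.752. Within the replicate lists, the highest-scoring clusters of 3L nearly all had a match. Clusters without one were narrower and scored lower by their medians, but were not confined to the lowest scores.

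The widest clusters of replicate 2 that replicate 1 lacked ran from 20511186 to 20514744 (3559 bp, score 0.68), from 3896254 to 3899726 (3473 bp, score 0.36) and from 10219410 to 10222587 (3178 bp, score 0.72). The remaining 2 of its 5 widest measured 2943 and 2807 bp. In replicate 1 the 5 widest of this kind were 1822 to 2024 bp, led by that from 873781 to 875804 (score 0.66). On the telomere side 7.24% of clusters in replicate 1 and 19.6% in replicate 2 had no match in the other, and on the centromere side 4.98% and 19.9%.

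The combined list took in nearly every replicate cluster on the arm, all 668 of replicate 1 and 761 of the 765 of replicate 2. Of its 966 clusters, 600 (62.1%) were found in both replicates, 182 (18.8%) in 1 and 184 (19.0%) in neither. The 600 made up 74.4% of the covered length, with a median width of 2666.5 bp and a median score of 0.50. The 184 found in neither had a median width of 1248 bp and a median score of 0.33. Of the 117 combined clusters narrower than 1302 bp, the narrowest width in either replicate, 108 were found in neither. In the 25% of combined clusters with the highest score 98.8% were found in both replicates, and in the lowest 25% it was 32.2%.

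Close neighbours in the combined list were seldom bridged by a replicate cluster, and had a match about as often as all clusters of the arm. Of its 153 gaps under 1 kb, 0 were bridged by a single cluster of replicate 1 and 8 by one of replicate 2. In 64 of these pairs both members were found in both replicates, and in 47 at least 1 member was found in neither. Of the 287 clusters with a neighbour under 1 kb away, 60.3% were found in both replicates and 18.1% in neither. For all 966 combined clusters the shares were 62.1% and 19.0%.

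Beside the other large autosome arms, 3L had the smallest share of clusters in tight groups, and its density lay between that of 2L and 3R. It held 29.2 ± 2.79 clusters per Mb, against 26.6 ± 2.09 on 2L, 33.04 ± 1.77 on 3R and 37.9 ± 2.01 on 2R (SD, n = 2). Its share of clusters in tight groups, 6.42% ± 1.46, stood beside 10.7% ± 1.95 on 3R, 13.9% ± 4.46 on 2L and 15.95% ± 1.10 on 2R (SD, n = 2). The highest replicate value of 3L, 7.45%, was below the lowest of any other arm, 9.36%. Empty territories filled 50.9% ± 1.01 of 3L, 46.8% ± 2.83 of 3R, 57.2% ± 0.743 of 2L and 36.0% ± 1.56 of 2R. The median gap, 8543.5 ± 1019 bp on 3L, was 7043 ± 315 bp on 3R, 7476 ± 833 bp on 2L and 6953.5 ± 396 bp on 2R. The median score was 0.53 ± 0.019 on 3L and 0.56 to 0.57 on the others. These differences between arms were not tested, since clusters of 1 library are not replicates and all arms share the same 2 libraries.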

How the data were processed

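ChIP-seq regions of 2 H4K16ac ChIP libraries from fly heads were used, with 1 list per replicate and 1 combined list of the replicate set. Per the submitters' processing notes, the aligner was Bowtie 0.12.7. Positions are 1-based on FlyBase release 5, per the file headers. The score of each region was set by the authors, with its scale, the region caller, the thresholds, the use of the input and the way of combining not given in the sources used here. Groups were taken from the sample titles.

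Enriched regions on 3L were kept as deposited and depleted ones set aside. Clusters were put in bins by their midpoint. Chains joined neighbours with gaps of at most 5 kb, and tight groups held at least 5 clusters. Empty territories were stretches of at least 100 kb. Overlap of 1 bp counted as shared. Values are given per list and as mean ± SD of the 2 replicates. No test was run: no groups of samples could be compared, and clusters, bins and gaps of 1 library are not replicates. With depth unknown, no counting intervals are given.

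The arm, its members, the bins and the limits were chosen with earlier results of these data known. The regions named are the 10 widest and 10 highest-scoring combined clusters found in both replicates (the leading ones in full), the 5 longest stretches free of clusters, the 5 tight groups with the most clusters, the 3 fullest and 3 emptiest bins with ties, and the 5 widest clusters that 1 replicate lacks. Genes were not placed at the regions, because the gene table at hand is on release 6. Procedures were tested on simulated clusters of known spacing and overlap. Alternatives were the combined list, the 50% of clusters with the highest score, merging of clusters under 500 bp apart, other limits, and leaving out a replicate. The software was Python 3.11.15 with pandas 2.3.3, numpy 2.4.6, matplotlib 3.10.9 and scipy 1.17.1.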

Additional observations from a re-analysis of the deposited data

How the results depend on the processing

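In the combined list the covered share of 3L was 9.62% (main value 6.91%), with 39.4 clusters per Mb (29.2), a median width of 2080.5 bp (2025.5), a median score of 0.39 (0.53), a median gap of 5975 bp (8543.5), 16.1% of clusters in tight groups (6.42%) and 42.9% of the arm in empty territories (50.9%). With only the 50% that scored highest these were 4.19%, 14.6 per Mb, 2609.5 bp, 0.69, 22166 bp, 0% and 68.2%, and the selection removes clusters by construction. There the ratio of the telomere side to the centromere side was 1.39 (main value 1.36). With both replicate lists cut in this way the Jaccard index was 0.614 (0.714). The mean share of clusters overlapping the other replicate was 77.7% (87.0%). A match outside the 50% kept in the other list no longer counts in these 2 values. Of the 50% of combined clusters that scored highest, 87.2% were found in both full replicate lists (62.1%). With clusters under 500 bp apart merged, the median width was 2071.5 bp, the median gap 10032 bp and the share in tight groups 4.57%. That share was 1.03% with gaps of at most 2 kb and 26.9% with gaps of at most 10 kb. Empty territories took up 23.7% of the arm at a minimum of 200 kb and 68.7% at 50 kb. With only combined clusters found in both replicates, chosen after seeing the data, there were 24.4 clusters per Mb, a ratio of sides of 1.32, 1.67% in tight groups and 54.2% in empty territories. The ratio of sides was 1.23 without the last 2 Mb and 1.25 without the first 2 Mb, and stayed above 1 under every alternative run. Leaving out a replicate gave 6.24% to 7.58% covered, 27.2 to 31.2 clusters per Mb, a ratio of sides of 1.34 to 1.38, 5.39% to 7.45% in tight groups and 50.2% to 51.6% in empty territories. It gave 66.1% to 76.9% of combined clusters found in the remaining replicate, since a match in 1 list is then enough. The cause of these changes was not tested beyond what each alternative removes. Whether the scores of the combined list and of the replicate lists share a scale is not stated. No paired analysis was possible because only the ChIP libraries had files and the result comes from no test. Depth is unknown, so how far it limits the weaker clusters cannot be given.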

Other observations

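The combined list also named 3 depleted regions on 3L, and the replicate lists named 0. The weakest ran from 13039427 to 13041212, with a score of -0.0094. Another, from 16370611 to 16372059, had a score of -0.043, and the last, from 21050196 to 21051926, one of -0.029. The weakest lay 422 bp past the nearest combined cluster, at the very edge of the empty territory that runs on to 13379655. The remaining pair lay 6547 and 6554 bp from the nearest combined cluster.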
